A study of Mus musculus with 6 samples.

Results

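Ion channel and neurotransmitter receptor genes were examined through the open chromatin regions (peaks) assigned to them in mouse definitive endoderm. A peak belonged to the set when the gene that the authors' deposited table assigns to it had a symbol beginning with Kcn, Cacna, Cacnb, Cacng, Gria, Grik, Gabr or Asic, with Grin followed by 1, 2 or 3, with Grm and a digit, or with Scn and a digit. This took 676 peaks of 170 genes, out of 70494 peaks of 26796 genes. The assignment is the authors' and rests on position, so it does not show that a peak acts on the gene named. The assay was ATAC-seq, where a transposase cuts open DNA and tags it for sequencing. Both groups came from 1 line of epiblast stem cells, 7H OTX2-dTAG-EGFP, of BL6/129 hybrid strain. In this line, OTX2, a transcription factor, bears EGFP and a tag that allows its degradation, so the DMSO group carried the tagged allele too. Cells received 40 ng/ml Activin A and 3 uM CHIR for 16 h and then 100 ng/ml Activin A and 100 nM LDN for 24 h. From the primitive streak stage on, the dTAG13 group (3 libraries) had the degrader dTAG13 for 24 h, and the DMSO group (3 libraries) had its solvent. Each library held 50000 live sorted cells. The 3 libraries of a group are technical replicates per the design text, so the errors below measure the spread between libraries and need not include that between cultures.

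Voltage-gated potassium, calcium and sodium channels open with changes of membrane potential, and in neurons and muscle they shape the action potential and calcium entry. Inward-rectifier and tandem-pore potassium channels hold the resting potential of many cell types, including epithelia. Glutamate and GABA-A receptors are best known from synapses, and OTX2 is a homeodomain factor of the early endoderm and of the anterior nervous system. Many neuronal channel genes are held silent outside neurons by the repressor REST, which binds a long DNA element in and near them.

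The sequences of the regions on which the results below turn are given first, on the plus strand of GRCm38.p6 (mm10, the C57BL/6J reference), with 1-based positions. The first set holds lower peaks with the OTX consensus GGATTA on either strand, in capitals. It was taken from the 12 lower peaks of smallest adjusted p, and the central 200 bases of the longer Asic2 peak were added after its values had been seen. The Cacna1c peak (chr6:119058963-119059191) lies in intron 1 of 46, the Cacna1e peak (chr1:154574207-154574402) in intron 6 of 46, and the Asic2 window (chr11:81926559-81926758) in intron 1 of 9. The Kcnk2 peak (chr1:189431637-189431809) and the Grik3 peak (chr4:125454169-125454306) are annotated as distal intergenic, and the Kcnn3 peak (chr3:89671351-89671615) as exonic, in a retained-intron transcript. The Cacna1e sequence shown has 3 copies of the consensus and each of the others shown has 1.
Asic2: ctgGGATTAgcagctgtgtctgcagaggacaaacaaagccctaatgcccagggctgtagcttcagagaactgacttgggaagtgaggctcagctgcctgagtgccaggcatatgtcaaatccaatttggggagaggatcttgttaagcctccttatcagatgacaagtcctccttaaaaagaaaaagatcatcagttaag
Cacna1c: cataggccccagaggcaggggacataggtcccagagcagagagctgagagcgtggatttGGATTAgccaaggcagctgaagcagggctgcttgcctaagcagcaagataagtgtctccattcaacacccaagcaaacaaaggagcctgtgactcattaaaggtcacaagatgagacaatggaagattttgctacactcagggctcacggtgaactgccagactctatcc
Cacna1e: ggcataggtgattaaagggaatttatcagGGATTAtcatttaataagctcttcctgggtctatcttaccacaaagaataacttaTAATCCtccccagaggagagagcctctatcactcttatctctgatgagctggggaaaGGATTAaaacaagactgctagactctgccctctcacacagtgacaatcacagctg
Kcnk2: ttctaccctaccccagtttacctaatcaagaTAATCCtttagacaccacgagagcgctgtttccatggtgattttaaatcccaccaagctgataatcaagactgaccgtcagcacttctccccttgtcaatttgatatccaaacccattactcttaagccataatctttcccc
Grik3: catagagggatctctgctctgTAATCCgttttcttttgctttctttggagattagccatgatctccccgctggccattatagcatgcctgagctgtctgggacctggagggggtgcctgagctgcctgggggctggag
Kcnn3: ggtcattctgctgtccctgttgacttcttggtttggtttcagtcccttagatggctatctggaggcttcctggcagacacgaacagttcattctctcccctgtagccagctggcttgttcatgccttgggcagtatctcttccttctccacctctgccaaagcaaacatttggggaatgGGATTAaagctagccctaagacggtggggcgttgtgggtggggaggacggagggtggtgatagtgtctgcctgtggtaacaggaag

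The second set shows higher peaks, chosen among the calls of smallest adjusted p. For Kcnip4, the part upstream of the start site is shown (chr5:48599683-48599794). An annotated antisense transcript overlaps this start. The Grin2a peak (chr16:9798870-9798955) is annotated as promoter, and its middle lies 1580 bases from the nearest start site of the gene. That start belongs to a processed transcript and is not a coding start. Neither held GGATTA or the TEAD consensus GGAATG within 100 bases of its middle.
Kcnip4: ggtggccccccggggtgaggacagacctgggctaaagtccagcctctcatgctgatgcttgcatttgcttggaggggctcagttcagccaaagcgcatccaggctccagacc
Grin2a: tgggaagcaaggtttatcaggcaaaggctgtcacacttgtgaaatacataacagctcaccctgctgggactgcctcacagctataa

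The last sequence is from a promoter peak with the REST element, that of Gria2 (chr3:80802836-80803027), the strongest such peak. Capitals mark the element, which has 1 mismatch to the consensus searched. The transcript runs on the minus strand and starts just before the first base shown.
Gria2: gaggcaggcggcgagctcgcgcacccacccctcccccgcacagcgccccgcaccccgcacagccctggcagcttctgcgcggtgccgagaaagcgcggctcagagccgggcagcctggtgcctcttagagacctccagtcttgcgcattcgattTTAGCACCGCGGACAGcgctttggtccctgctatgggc

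Few of these regions were called upon loss of OTX2, and those called were mostly lower. Of the 652 peaks with an adjusted p in the authors' deposited table, 29 peaks of 21 genes were lower in dTAG13 and 8 peaks of 7 genes were higher at an adjusted p under 0.05 (two-sided Wald test, Benjamini-Hochberg over all peaks). The lower share was 4.45%, against 3.79% of all peaks, and the higher share was 1.23%, against 1.47% of all peaks. With both directions together, 5.67% were called, against 5.26% of all peaks. The share called was thus near the background. At an unadjusted p under 0.05, 113 of the 676 member peaks were lower and 45 higher, against 8965 and 4938 of all 70494 peaks. The remaining 24 member peaks had no adjusted p, as had 1366 peaks in all, whose mean normalized counts were 1.87 or less.

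The median log2 fold change of dTAG13 over DMSO was -0.37 (quartiles -1.28 and 0.34) over the 676 peaks in the authors' deposited table, against -0.18 (quartiles -1.01 and 0.39) over all peaks. It was negative at 446 peaks, 66.0%, against 58.2% of all peaks. Signal was low. The mean normalized read count over the 6 libraries had a median of 6.38, against 7.33 for all peaks, and none exceeded 75.1. The split between directions moved with the zero point of the fold changes. Centring on the median of all peaks gave 22 lower and 15 higher member peaks, centring on peaks found in both groups (median 0.09) gave 33 and 4, and centring within deciles of GC content gave 14 and 19. Over all peaks, the same centrings gave 2056 lower and 1958 higher, 3159 and 790, and 1396 and 2170, against 2622 and 1016 as deposited. The split thus moved over all peaks too. Under a minimum mean count of 5, 18 member peaks were lower and 7 higher, against 2089 and 916 of all peaks.

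**Figure D1:**
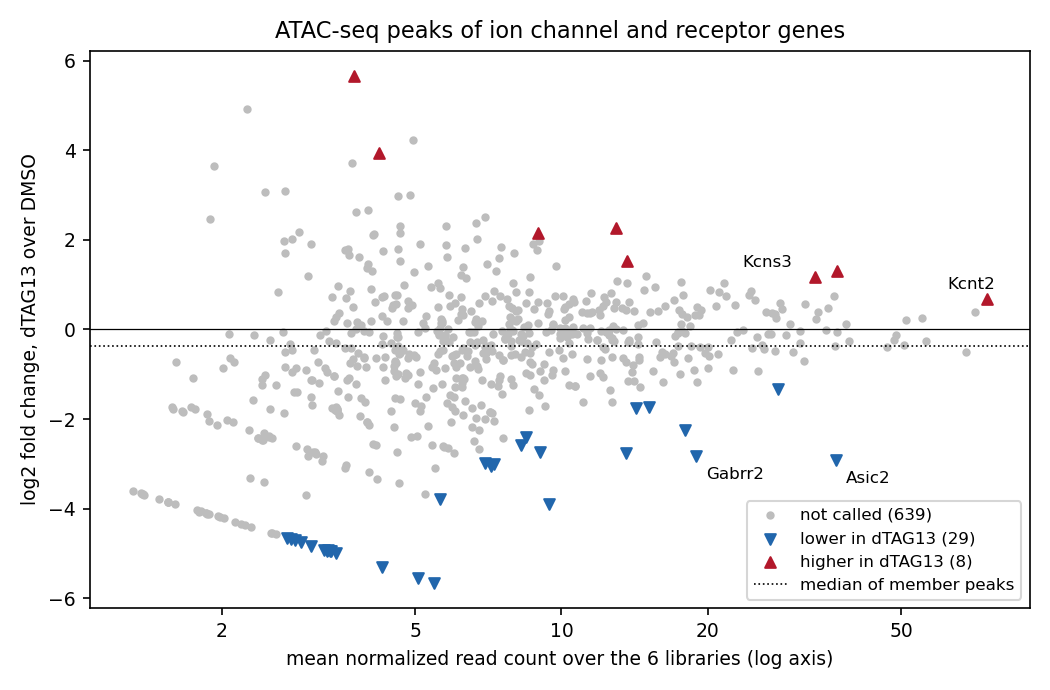
Mean normalized read count over the 6 libraries (log axis) against the log2 fold change of dTAG13 over DMSO for the 676 peaks, from the authors' deposited table; blue triangles are the 29 lower and red triangles the 8 higher peaks at an adjusted p under 0.05. Called peaks at low counts have large negative fold changes, and the peak of highest count, Kcnt2 at 75.1, is higher in dTAG13.

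From the mean and the fold change of each peak, a mean per library of each group was derived (the implied count); values of single libraries were not used here. Where the lower group came out under a mean of 1 (3 counts over its 3 libraries), the fold change fitted is poorly determined, and a lower bound against that floor is given. This held for 15 of the 29 lower and 2 of the 8 higher peaks. The lower peaks had a median log2 fold change of -3.91 as deposited and of -2.70 with these peaks at their bound, with a median standard error (SE) of 1.21. Only 7 of the 29 had a mean normalized count of at least 10.

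Among potassium channels and their subunits, 16 of 321 peaks were lower and 5 higher. The counts of each family below stand beside 3.79% lower and 1.47% higher among all peaks tested, and no family was tested against that background. The tandem-pore channels, which carry background potassium current, had 6 lower and no higher peaks among 42 tested by the authors' Wald test (14.3% lower, against 3.79% of all peaks), with 3 higher at an unadjusted p under 0.05. Near Kcnk2, which encodes the mechanosensitive channel TREK-1, the intergenic peak printed above had an implied mean normalized count of 9.95 in DMSO and 0.212 in dTAG13, at least 9.95-fold lower (adjusted p = 0.00454 in the authors' deposited table). Its middle lay 29450 bases from the nearest start site of the gene. The Kcnk12 peak (chr17:87834978-87835098) fell from 8.35 to 0.212, at least 8.35-fold, with an adjusted p of 0.0101. A start site of another annotated gene lay nearer to it than that of Kcnk12.
Kcnk5, which encodes the acid-sensitive channel TASK-2, had 2 lower peaks in its first intron, 16384 bases apart, with implied counts of 6.29 and 5.36 in DMSO and of 0.208 and 0.210 in dTAG13. The Kcnk6 promoter peak (chr7:29230727-29230954) went from 12.4 to 1.55, 7.97-fold lower, with a log2 fold change of -2.99, SE 0.93 and adjusted p = 0.032, all from the authors' deposited table. The start site of the gene nearest to this peak belongs to a processed transcript and is not a coding start. The sixth was an intergenic peak near Kcnk15, at 5.90 in DMSO and 0.207 in dTAG13. The 6 peaks ranged from 5.36 to 12.4 implied counts in DMSO, and the Kcnk6 peak was the 1 of them with a derived dTAG13 mean above 1.

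Voltage-gated potassium channel genes, the largest family with 130 peaks of 38 genes, had 7 lower and 2 higher peaks among 126 tested. Kcnd3, which encodes the A-type channel Kv4.3, had 2 lower peaks in intron 2 of 6, 59221 bases apart, both with GGATTA. Their implied counts were 6.48 and 6.39 in DMSO and 0.209 and 0.207 in dTAG13. All 6 Kcnd3 peaks had a negative log2 fold change. Kcnh8, a channel of the ether-a-go-go class, had 2 lower peaks 318286 bases apart, of which the intronic one fell from 14.2 to 2.68 (5.29-fold, adjusted p = 0.0443 in the authors' deposited table). To the intergenic one, a start site of another annotated gene lay nearer than that of Kcnh8. The other lower peaks were single ones in Kcnh1, Kcnq3 and Kcnv2. The Kcnq3 peak lay in intron 1 of 14, held GGATTA and went from 12.9 to 1.60 implied counts.

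Of the higher peaks of the family, that of Kcns3 was clearly stronger than the lower ones, with a mean normalized count of 33.3. That of Kcna2, at 8.94, was close to the strongest lower peak, in Kcnh8, at 8.44. In Kcns3, which encodes a modifier subunit with no current of its own, a peak in intron 1 of 2 (chr12:11120751-11121159) rose from an implied 20.5 to 46.1, 2.25-fold. Its log2 fold change was 1.17 (SE 0.32, adjusted p = 0.0144, all from the authors' deposited table). A start site of another annotated gene lay nearer to this peak (21359 bases) than that of Kcns3 (29418 bases). The Kcna2 promoter peak (chr3:107102489-107102642), 116 bases from a coding start site, rose from 3.27 to 14.6 (log2 fold change 2.16, SE 0.70, adjusted p = 0.0416, all from the authors' deposited table). Kcna2 encodes Kv1.2, a delayed rectifier of axons.

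Kcnn3, which encodes the small-conductance calcium-activated channel SK3, had 2 lower peaks among 13. The exonic peak printed above was the only lower member peak present in both groups' peak lists. It went from an implied 40.0 to 15.9, 2.52-fold lower (log2 fold change -1.33, SE 0.37, adjusted p = 0.0132, all from the authors' deposited table). The other, in intron 2 of 7, was at 6.40 in DMSO and 0.209 in dTAG13, with GGATTA within 100 bases of its middle but outside the peak itself, while the exonic peak held the consensus within it. In the same family, the promoter peak of Kcnt2 (chr1:140245531-140245822), which encodes the sodium-activated channel Slick, was the strongest of all 676. It rose from 57.9 to 92.2, 1.59-fold (log2 fold change 0.67, SE 0.20, adjusted p = 0.0262, all from the authors' deposited table). The inward rectifiers had no call in either direction among 48 peaks of 13 genes by the authors' Wald test, against 5.26% of all peaks called, with 10 lower and 2 higher at an unadjusted p under 0.05. Their strongest peak, near the renal channel gene Kcnj1, was at 50.2 in DMSO and 60.2 in dTAG13 (adjusted p = 0.575 in the authors' deposited table).

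Auxiliary subunits of potassium channels had 1 lower and 2 higher peaks among 57 tested, all in the Kcnip genes, whose calcium-binding products modulate Kv4 channels. Kcnip4 was the 1 gene of the 170 with calls in both directions. Its peak at an internal start site (chr5:48599543-48599794, middle 13 bases from that start) rose from an implied 4.46 to 21.4, 4.81-fold (log2 fold change 2.27, SE 0.55, adjusted p = 0.00433, all from the authors' deposited table). A peak 926250 bases away, 1012 bases upstream of another coding start (chr5:49525833-49526004), went from 14.1 to 2.37, 5.97-fold lower (log2 fold change -2.58, SE 0.81, adjusted p = 0.0357, all from the authors' deposited table). The peak at that second start itself had a log2 fold change of -0.19 (SE 0.52) in the authors' deposited table and was not called. The annotation gives Kcnip4 8 distinct start sites, spread over 1032.6 kb. In Kcnip1, a peak in intron 1 of 7 with the TEAD consensus rose from 7.01 to 20.3 (log2 fold change 1.54, SE 0.50, adjusted p = 0.0456, all from the authors' deposited table). The strongest peak of the family, at the Kcnab2 promoter, was at 61.0 and 80.4 and did not pass (adjusted p = 0.259 in the authors' deposited table).

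Calcium channel genes had 7 lower and no higher peaks, 3 among 65 tested peaks of pore genes and 4 among 60 of auxiliary subunits by the authors' Wald test. At an unadjusted p under 0.05, 2 peaks of each were higher. Cacna1c encodes the L-type pore Cav1.2. Its peak in intron 1 of 46 went from an implied 23.6 to 3.50, 6.75-fold lower (log2 fold change -2.75, SE 0.64, adjusted p = 0.00229, all from the authors' deposited table). Cacna1e, which encodes the R-type pore Cav2.3, had 2 lower peaks in intron 6 of 46, 33054 bases apart. The one with 3 copies of GGATTA was at 10.7 in DMSO and 0.213 in dTAG13, at least 10.7-fold lower (adjusted p = 0.00358 in the authors' deposited table), and the other was at 6.67 and 0.209, with 1 copy. Their middles lay 97609 and 118561 bases from the nearest start site of the gene. Cacna1a, which encodes the P/Q-type pore and had the most peaks of any member gene (16), had no call, although 13 of the 16 log2 fold changes were negative. Its strongest peak, at the promoter, was at 56.8 in DMSO and 44.7 in dTAG13 (adjusted p = 0.545 in the authors' deposited table).

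Among the calcium channel auxiliary subunits, 3 of the 4 lower peaks belonged to Cacna2d3, which encodes an alpha2delta subunit that aids trafficking of the pore. Their middles lay 1666 and 6069 bases apart in turn, around the coding start. The promoter peak (chr14:29721971-29722213), 228 bases upstream of that start, went from 22 to 6.48 (3.4-fold, log2 fold change -1.76, SE 0.54, adjusted p = 0.0299, all from the authors' deposited table). The next (chr14:29720351-29720500), 1438 bases downstream of the start, went from 15.7 to 2.35 (6.69-fold, adjusted p = 0.0161 in the authors' deposited table). The third, in intron 2 of 37, was at 5.25 in DMSO and 0.209 in dTAG13. The peak at the start itself had a log2 fold change of -1.24 (SE 0.59) in the authors' deposited table and was not called. A promoter peak 728 bases upstream had a log2 fold change of 1.31 (SE 0.73) in the authors' deposited table and was not called, so the peaks at this promoter did not all share a sign. Cacna2d3 is also marked as down in the authors' gene columns. Cacng4, which encodes a gamma subunit that also serves AMPA receptors, had an intronic peak at 10.5 in DMSO and 0.761 in dTAG13 (at least 10.5-fold lower, adjusted p = 0.0405 in the authors' deposited table) and is marked as up. Cacna2d2, with 14 peaks, had no call. The strongest auxiliary peak, assigned to Cacnb1, was at 61.4 and 51.2 (adjusted p = 0.571 in the authors' deposited table).

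**Figure D2:**
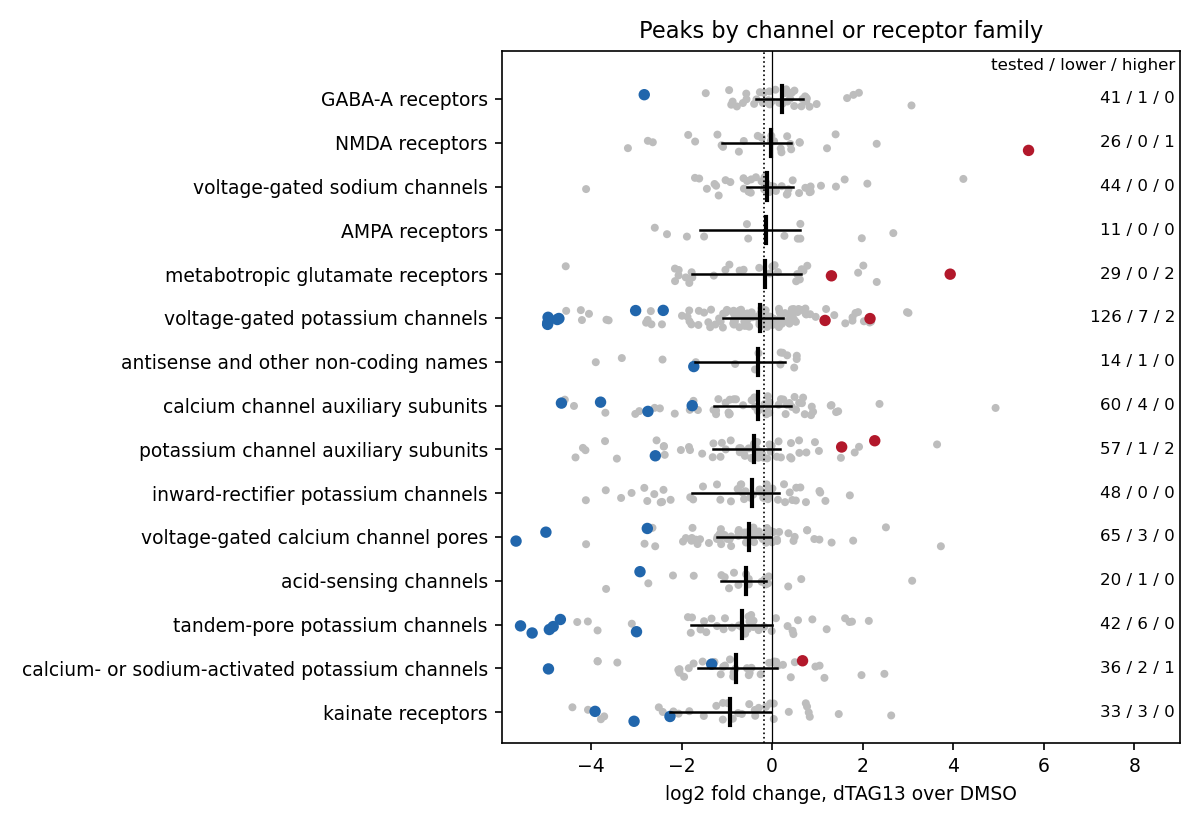
Log2 fold change of dTAG13 over DMSO of each of the 676 peaks by family, from the authors' deposited table, with the family's median (thick tick) and quartiles (line); blue points are lower and red points higher at an adjusted p under 0.05, and the dotted line is the median of all peaks, -0.18. Family medians run from -0.92 for kainate receptors to 0.23 for GABA-A receptors, and the right column gives peaks tested, lower and higher.

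Sodium channel genes had no call among 44 tested peaks of 14 genes by the authors' Wald test, against 5.26% of all peaks called, with 5 lower and 5 higher at an unadjusted p under 0.05. Their median log2 fold change was -0.12, and 62.2% of their peaks were in both groups' lists, the highest share of any family. The strongest, at the promoter of Scn7a, which encodes the salt-sensing channel Nax, was at 24.0 in DMSO and 32.9 in dTAG13 (adjusted p = 0.532 in the authors' deposited table). Whether this family differs from the calcium channels was not tested.

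Glutamate receptor genes had 3 lower and 3 higher peaks among 104. All 3 lower peaks belonged to kainate receptors (33 tested), whose 36 peaks had the lowest family median, -0.92. Grik3, which encodes the low-affinity subunit GluK3, had 2 lower intergenic peaks upstream of its start, 3533 bases apart. The stronger (chr4:125457626-125457915) went from an implied 29.7 to 6.22, 4.77-fold lower (log2 fold change -2.25, SE 0.50, adjusted p = 0.0015, all from the authors' deposited table). The one with GGATTA went from 17.7 to 1.18, 15.0-fold lower (log2 fold change -3.91, SE 0.97, adjusted p = 0.00546, all from the authors' deposited table). The strongest Grik3 peak lay in the same stretch (chr4:125445268-125445770) and was at 27.2 in DMSO and 45.6 in dTAG13. Its log2 fold change of 0.74 (SE 0.29) was not called (adjusted p = 0.109 in the authors' deposited table). It passed when fold changes were centred on all peaks (adjusted p = 0.0351) or within GC deciles (adjusted p = 0.0227). Grik2, with 15 peaks, had 1 lower, in intron 9 of 16, at 12.8 and 1.54.

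Among the higher peaks was that near a non-coding start site of Grin2a, which encodes the NMDA receptor subunit GluN2A. The peak was at 0.145 in DMSO and 7.36 in dTAG13, at least 7.36-fold higher (adjusted p = 0.00659 in the authors' deposited table). AMPA receptor genes had no call among 11 tested peaks by the authors' Wald test (1 lower and 2 higher at an unadjusted p under 0.05), and their strongest peak, the Gria2 promoter, was at 25.5 and 37.9 (adjusted p = 0.351 in the authors' deposited table). The strongest NMDA receptor peak, at the Grin2d promoter, was at 31.2 and 30.6, and that of the metabotropic receptors, at the Grm2 promoter, at 36.7 and 40.2.

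Among 41 peaks of 17 GABA-A receptor genes, 1 was lower, and the median log2 fold change was 0.23, the 1 family median above 0. Promoters within 1 kb held 46.3% of these peaks, against 11.1% of the kainate receptor peaks and 30.7% of all peaks. Whether position class accounts for the spread of family medians was not tested. The lower peak lies in intron 1 of 8 of Gabrr2 (chr4:33066233-33066564), which encodes a rho subunit known from the retina, 3287 bases from its start. It went from an implied 33.1 to 4.68, 7.07-fold lower (log2 fold change -2.82, SE 0.56, adjusted p = 0.000191, all from the authors' deposited table).

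Acid-sensing channels are proton-gated sodium channels, and 18 of the 21 peaks of their 5 genes had a negative log2 fold change. The call of smallest adjusted p among all members was in Asic2, in intron 1 of 9, 41798 bases from a coding start (chr11:81926373-81926945). This peak, 573 bases long, went from an implied 64.7 in DMSO to 8.57 in dTAG13, 7.55-fold lower (log2 fold change -2.92, SE 0.39, adjusted p = 5.88e-10, all from the authors' deposited table). It was the highest DMSO level among the lower peaks, and it kept its call under every filter and centring tried. The other 10 Asic2 peaks were not called. The strongest peak of the family was in an intron of Asic1, at 52.3 and 44.5 (adjusted p = 0.665 in the authors' deposited table). Names of antisense and other non-coding transcripts added 15 peaks, of which an intergenic one near Kcnmb4os1 was lower, at 23.3 and 7.03 (adjusted p = 0.0202 in the authors' deposited table). Their strongest, at the promoter of Kcnq1ot1, the imprinted transcript antisense to Kcnq1, was at 18.5 and 27.0.

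**Figure D3:**
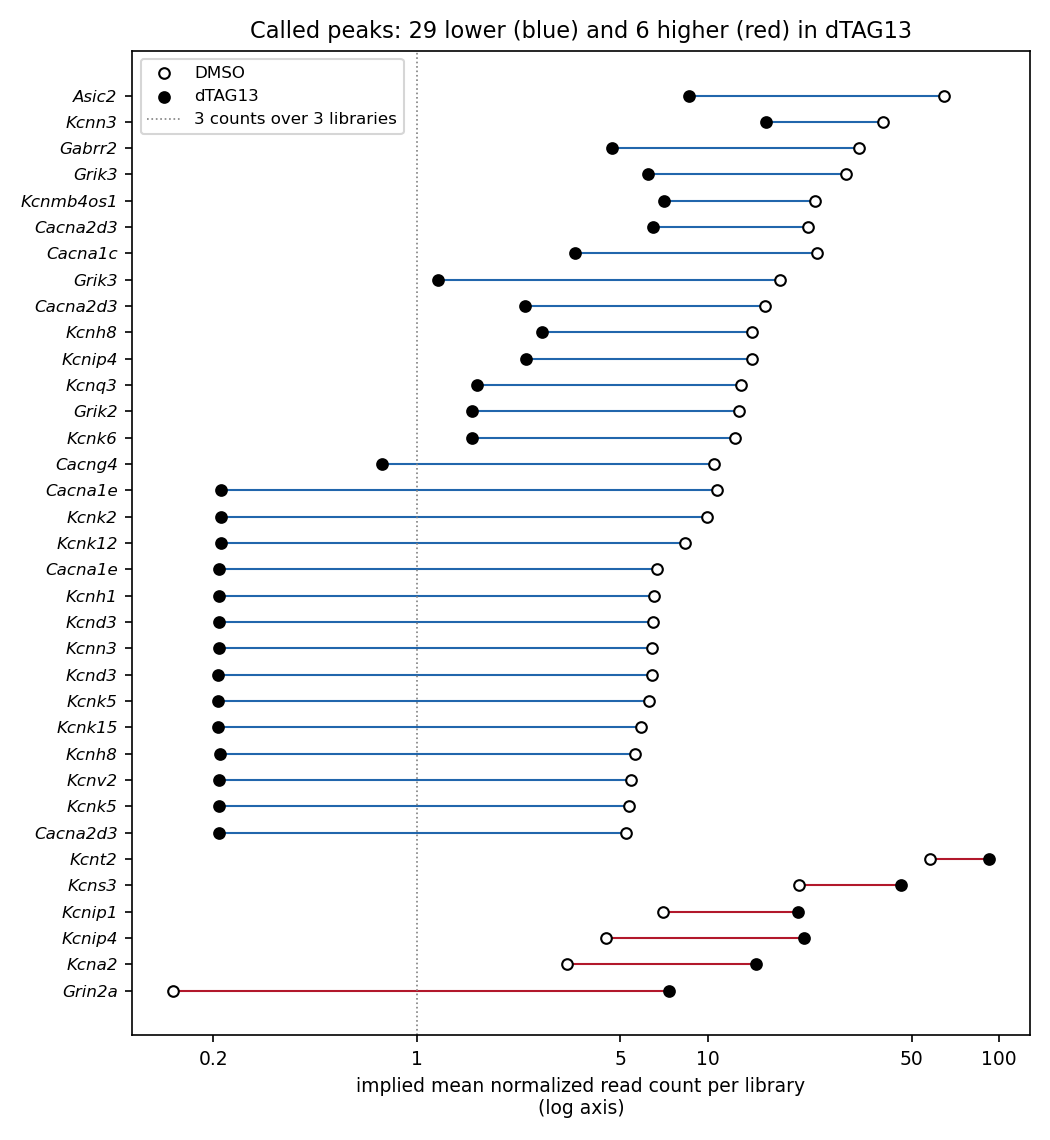
Implied mean normalized read count per library (log axis) in DMSO (open) and dTAG13 (filled) for the 29 lower peaks and 6 higher peaks, with 1 line per peak, labelled by gene and ordered by mean count. The dotted line marks a mean of 1; 15 lower peaks have a dTAG13 value and 1 higher peak, of Grin2a, a DMSO value to its left.

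Some calls ended under another centring. Centring on all peaks ended 7 of the 37 calls: both Kcnh8 peaks, the lower Kcnip4 peak (adjusted p = 0.0516), the Cacng4 peak, 1 Kcnk5 peak, and the promoter peak (adjusted p = 0.0543) and the third peak (adjusted p = 0.0565) of Cacna2d3. Centring on peaks of both lists ended 4 of the higher calls, among them those of Kcnt2 (adjusted p = 0.0621), Kcna2 and Kcnip1. Centring within GC deciles ended 15 calls, all lower, among them those of Kcnk6, Kcnq3, Grik2, the lower Kcnip4 peak and the exonic Kcnn3 peak (adjusted p = 0.0508). No called peak changed sign, and 11 of the 37, among them those of Asic2, Gabrr2, Cacna1c and both lower Grik3 peaks, passed under all 5 filters and centrings.

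Of the 27 genes with a call, 9 had 2 or more called peaks, among them 7 with lower peaks alone (Cacna1e, Cacna2d3, Grik3, Kcnd3, Kcnh8, Kcnk5 and Kcnn3) and Kcnip4 with 1 of each. Member genes had a median of 3 peaks, against 2 over all genes, and 35 had 1 peak. Across 169 genes, the number of peaks went with the length of the annotated gene (Pearson's r 0.43, Spearman's rho 0.43), a description across genes that share the same libraries. The positions of the called peaks were as follows. Of the 29 lower peaks, 16 were intronic, 7 distal intergenic and 5 (17.2%) in promoters within 3 kb, against 16.6% of all lower peaks in promoters, and the middles of 16 lay over 20000 bases from a start site of the assigned gene. Of the 8 higher peaks, 4 were intronic and 4 in promoters, against 31.2% of all higher peaks in promoters.

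**Figure D4:**
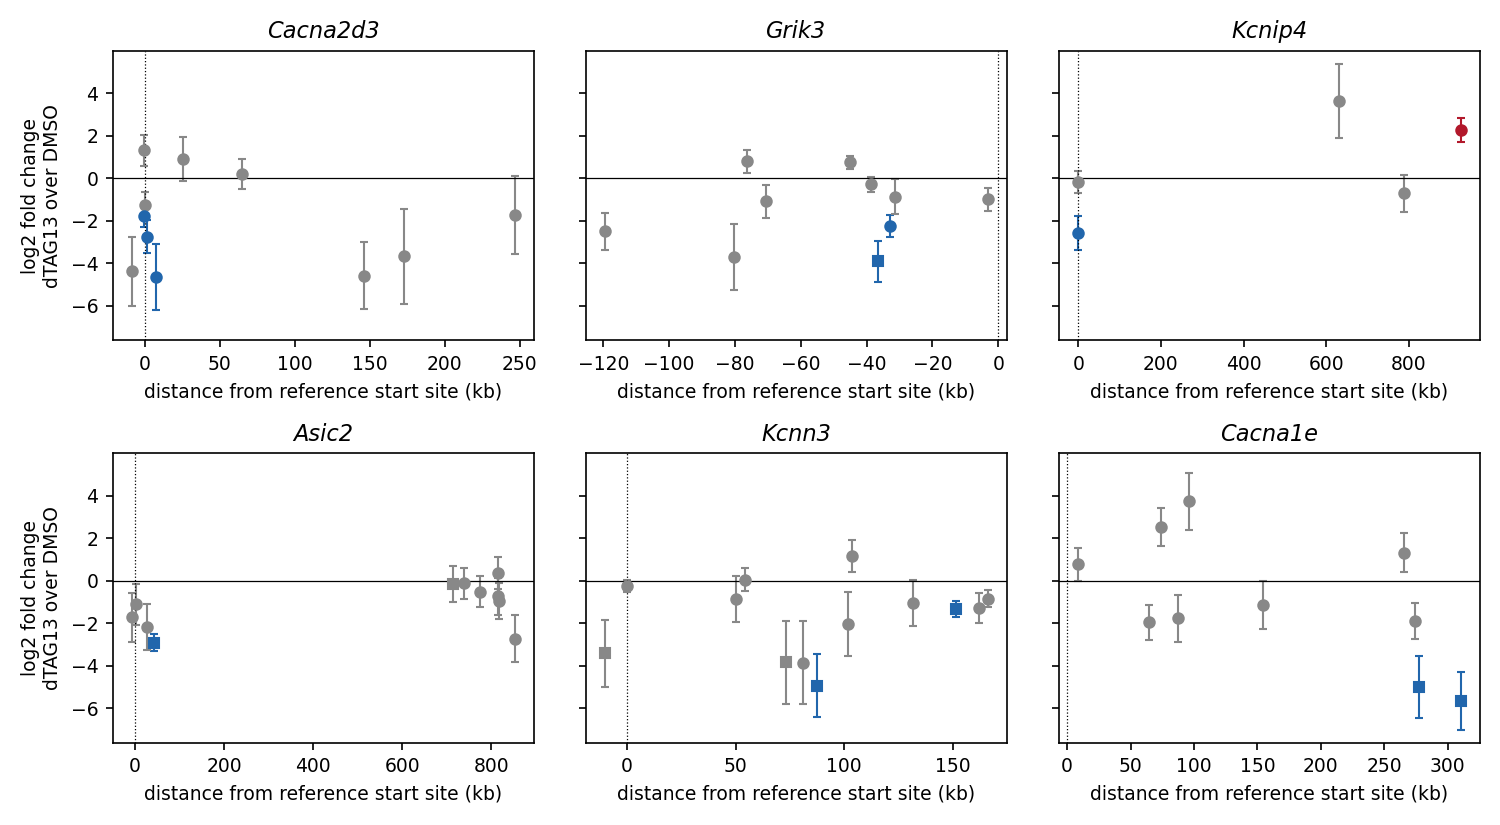
Log2 fold change of dTAG13 over DMSO with its SE, from the authors' deposited table, against the distance of the peak's middle from a coding start site in kb (positive values downstream), for 6 genes; blue is lower, red higher and grey not called, and squares have GGATTA within 100 bases of the middle. Lower and higher peaks lie at opposite ends of Kcnip4, while the 3 lower peaks of Cacna2d3 lie near its start.

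The composition of the regions differed from that of all peaks. Introns held 38.8% of the 676 peaks, against 26.1% of all peaks, while promoters within 1 kb held 27.5%, against 30.7%, and distal intergenic regions 24.0%, against 31.2%. In these classes, the median log2 fold change of the members was below that of all peaks in the authors' deposited table. It was -0.65 against -0.44 in introns, -0.55 against -0.38 in distal regions, and -0.11 against 0.03 in promoters within 1 kb. In promoters at 1 to 3 kb the medians were alike, -0.263 against -0.261. In exons, untranslated and downstream regions the members lay above all peaks, at -0.04 against -0.21. In introns, 6.45% of the tested member peaks were lower, against 5.6% of all intronic peaks, and 1.61% were higher, against 1.74%. In distal regions, 4.55% were lower, against 5.11%, and none of 154 was higher by the authors' Wald test, against 1.67%, with 10 at an unadjusted p under 0.05. In promoters within 1 kb, 2.16% were lower (4 of 185), against 1% of all such peaks, and 1.62% were higher, against 1.15%. Promoters of member genes were weakly open. The strongest promoter peak per gene had a median mean count of 12.8 over 124 member genes (quartiles 6.99 and 20.5), against 21.8 over 14926 genes.

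Peak lists had been called on the pooled libraries of each group, with 65089 peaks in DMSO and 44391 in dTAG13. Of the 676 peaks, 279 (41.3%, exact binomial 95% interval 37.5 to 45.1) overlapped both lists, against 48.2% of all peaks. The DMSO list alone held 321 (47.5%), against 40.1%, and the dTAG13 list alone 76 (11.2%), against 11.8%. Of the 29 lower peaks, 28 (96.6%) were in the DMSO list alone, against 86.9% of all lower peaks. Of the 8 higher peaks, 4 were in the dTAG13 list alone and 4 in both, against 57.5% of all higher peaks in the dTAG13 list alone. Each list is 1 pooled call, so these shares carry counting error over peaks only.

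The OTX consensus GGATTA, searched on both strands within 100 bases of the middle, was about as frequent at the member peaks (66 of 676, 9.76%, exact binomial 95% interval 7.63 to 12.3) as at all peaks (8.81%). At the lower member peaks it was present in 13 of 29, 44.8% (interval 26.4 to 64.3), against 34.1% of all lower peaks. Within 50 bases of the middle these shares were 24.1% and 21.1%. It was in none of the 8 higher peaks, which allows a share of up to 36.9%, against 1.28% of all higher peaks. The members not called held it in 8.29%, against 7.93%. The reversed letters ATTAGG, a control of the same base composition, were in 6 of the 29 lower member peaks, 20.7%, against 16.0% of all lower peaks. Among peaks not called, these letters were in 7.36% of the members and 6.73% of all peaks. The control too was thus more frequent at lower peaks than at peaks not called. Of the tested members with GGATTA, 13 of 61 were lower (21.3%) and none was higher, against 15.1% and 0.219% of all peaks with it. Without it, 2.71% of the members and 2.73% of all peaks were lower. The members with GGATTA had a median log2 fold change of -1.78, against -0.28 without it. Over all peaks these medians were -1.32 and -0.12, a gap of the same sign. Whether the members' shares exceed those of all lower peaks was not tested.

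Other motifs were searched in the same windows. The TEAD consensus GGAATG was in 11.1% of the member peaks and 11.5% of all peaks. It was in 2 of the 8 higher member peaks (25%), against 22.7% of all higher peaks. The GATA consensus AGATAA was in 15.4% and 15.6%, and in 10 of the 29 lower member peaks (34.5%), against 30.1% of all lower peaks. The FOX consensus GTAAACA was in 2.96% of the member peaks, against 5.33% of all peaks. It was in 2 of the 29 lower member peaks (6.90%), against 8.81% of all lower peaks. The T-box consensus AGGTGTGA was in 2.07% and 1.71%.

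The REST element, with at most 2 mismatches on either strand, was in 46 of the 676 peaks, 6.80% (exact binomial 95% interval 5.02 to 8.97), against 928 of 70494, 1.32% (interval 1.23 to 1.40). These intervals do not overlap. In promoters within 1 kb the shares were 8.06% and 1.06%, and in introns 8.02% and 1.50%. The 46 peaks belonged to 37 genes, among them Gria2, Scn8a, Cacng3, Cacna1b, Scn3b and Grin1. Peaks of other channel and receptor genes outside the symbols of the rule held it in 3.60% (16 of 445), and those of synaptic scaffold and auxiliary proteins in 4.68% (13 of 278). By family, shares rested on few peaks and ran from 1 of 39 peaks (2.56%) for calcium- or sodium-activated potassium channels and 1 of 36 (2.78%) for kainate receptors to 5 of 45 (11.1%) for sodium channels and 3 of 21 (14.3%, interval 3.05 to 36.3) for acid-sensing channels. In the RefSeq promoters of GRCm38.p6 (250 bases before to 50 after each start), 3 of 181 promoters of the rule's symbols held the element, 1.66%, against 168 of 32851, 0.511%. These were Gria2, Kcna5 and Kcnip3, and 123 of the 170 member genes were matched in that table.

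Of the 45 tested peaks with the REST element, 1 was lower, in Kcnk5, and none was higher by the authors' Wald test, with 4 at an unadjusted p under 0.05. Over all 918 tested peaks with the element, 8 were lower and 3 higher. The member peaks with the element had a median log2 fold change of 0.07 in the authors' deposited table, against -0.42 for the members without it, and over all peaks these medians were -0.00104 and -0.18. Of the 46 member peaks, 29 (63.0%) were in both groups' lists, against 39.7% of the other members, and over all peaks these shares were 50.8% and 48.1%. Their median mean count was 7.12, against 6.31. At Grin1, which encodes the obligatory NMDA receptor subunit, the promoter peak with the element was at an implied 12.6 in DMSO and 12.5 in dTAG13. At Scn3b, which encodes a sodium channel beta subunit, it was at 8.36 and 17.7 (adjusted p = 0.214 in the authors' deposited table).

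**Figure D5:**
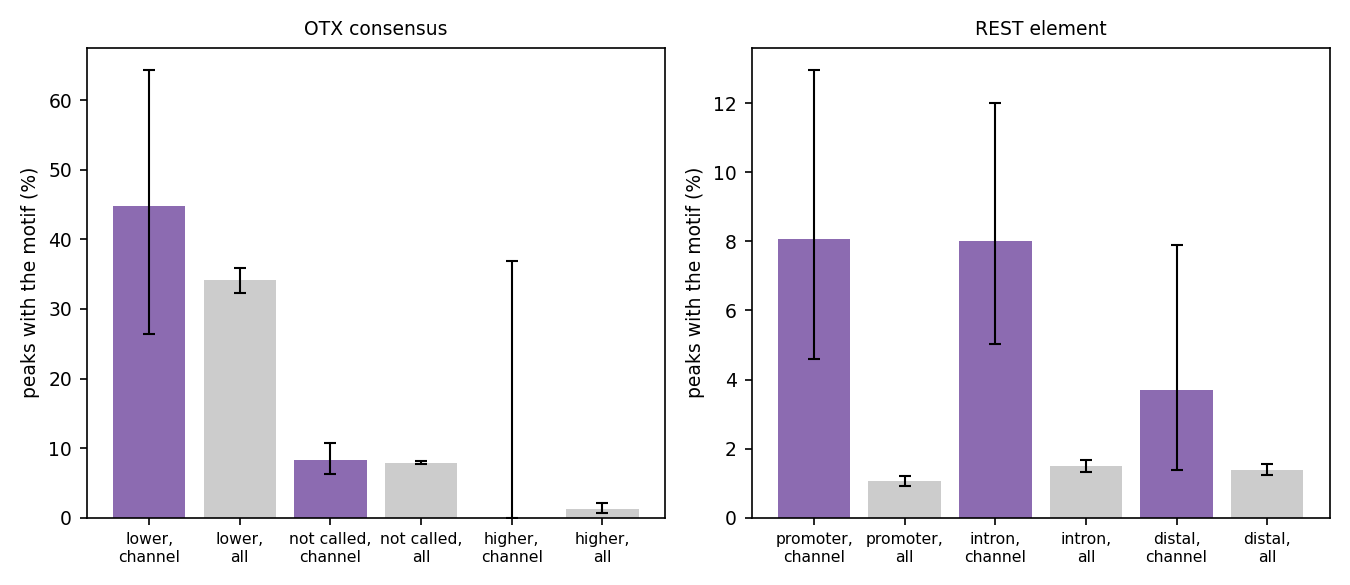
Share of peaks (%) with the OTX consensus by call (left) and with the REST element by position class (right) within 100 bases of the middle, with exact binomial 95% intervals; purple bars are the channel and receptor peaks and grey bars all peaks. The lower peaks hold the OTX consensus in 44.8% and 34.1% (24.1% and 21.1% within 50 bases), and promoter peaks hold the REST element in 8.06% and 1.06%.

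Other channel and receptor genes (124 genes, 443 tested peaks) had 16 lower and 6 higher peaks and a median log2 fold change of -0.20, and synaptic scaffold and auxiliary genes (47 genes, 275 tested peaks) had 9 lower, 2 higher and a median of -0.14. The cell type label was checked on markers: all 10 endoderm markers had a promoter peak (strongest per gene from 13.6 to 58.1 mean counts), as had all 8 neural markers (10.5 to 49.3), 4 of 5 mesoderm and 3 of 5 pluripotency markers. Neural markers had 1 higher and no lower peak among 39 tested, and their part in the results above was not tested. The authors' gene columns mark 3 member genes as down (Cacna2d3, Cacnb4 and Kcnk16), 1.76% against 1.38% of all genes, and 6 as up (Cacng4, Grik4, Kcnb2, Kcnma1, Kcnq5 and Kcns3), 3.53% against 1.60%. How the marks were made is not stated in the sources used here. Of the marked genes, Cacna2d3 (down) had 3 lower peaks, Kcns3 (up) 1 higher and Cacng4 (up) 1 lower. Mark and accessibility thus had the same sign at 2 genes and opposite signs at 1, though another gene's start site lay nearer to the Kcns3 peak. The other marked genes had no called peak.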

How the data were processed

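ATAC-seq libraries of 3 DMSO and 3 dTAG13 samples had been processed with fastp, Bowtie2, MACS2, featureCounts, HOMER 4.11 and ChIPseeker on mm10, per the submitters' processing notes; parameters, duplicate handling and any shift of read ends are not given in the sources used here. The signal deposited by the authors is a mean of read counts normalized by size factors, under the column names of DESeq2, per the file headers. The log2 fold change of dTAG13 over DMSO and its SE were taken as deposited. The deposited score equals the log2 fold change over its SE (largest difference 8.72e-07). The deposited p-value is that of a two-sided Wald test, and the adjusted p-value is the authors' Benjamini-Hochberg adjustment. Values per library were not used here, so no differential test was fitted and depth per library is unknown.

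Members and lists were chosen with earlier results of these data known. Named peaks are the 12 lower and 12 higher calls of smallest adjusted p (8 higher existed), the peak of highest count per family, the 3 genes with most peaks, genes with 2 or more calls and marked genes with a call; other names were chosen after their values were seen. A few peaks that this rule takes are counted but not reported here singly. Group means were derived from the mean m and fold change as 2m divided by 1 plus the fold, and floored at 3 counts over 3 libraries. Distances used GENCODE M21 start sites (169 of 170 gene names matched), since the table gives none. Overlaps needed 1 base. Intervals are exact binomial at 95% and cover counting error only. Marker lists covered endoderm, neural, mesoderm and pluripotent cells. Alternatives covered filters, centring, thresholds, overlap and motif window. Scripts ran in Python 3.11.15 with scipy 1.17.1, pandas 2.3.3 and numpy 2.4.6 and were tested on simulated data.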

Additional observations from a re-analysis of the deposited data

How the results depend on the processing

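The 29 lower member peaks became 18 with a mean normalized count of at least 5 (17 of them among the 29), 14 with fold changes centred within GC deciles, and 47 at an adjusted p under 0.1. Over all peaks, 2622 lower peaks became 2089, 1396 and 4342 in turn. Between 22 and 33 member peaks were lower under the other alternatives tried. The 8 higher peaks became 15 when centred on all peaks, 19 within GC deciles, 4 when centred on peaks of both lists, and 17 at an adjusted p under 0.1. Over all peaks, 1016 higher peaks became 1958, 2170, 790 and 1949 in turn. The median log2 fold change of the members, -0.37, was -0.19 centred on all peaks, -0.16 within GC deciles and -0.17 with a mean count of at least 5. The share in both pooled lists, 41.3%, was 33.7% when 50% of both peaks had to overlap. The share of lower member peaks with GGATTA, 44.8%, was 24.1% within 50 bases of the middle and 41.4% over the whole peak. Over all lower peaks, 34.1% became 21.1% within 50 bases. Of the 37 called peaks, 30 kept their call centred on all peaks, 33 centred on peaks of both lists, and 22 within GC deciles; all 23 with a mean count of at least 5 kept it under that filter. The Grin2d promoter peak changed sign when centred on all peaks (log2 fold change 0.15, adjusted p = 0.840), with no call either way. Why calls moved with GC centring was not tested. No paired analysis was possible because the deposited table gives 1 fold change per peak and no values per library, and for the same reason no library could be left out. Low counts set the precision: 36.5% of the member peaks had a mean count under 5, and 15 of the 29 lower peaks had a derived dTAG13 mean under 1.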
